A study of Homo sapiens with 6 samples.

Results

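The cytosolic ribosomal protein genes encode the proteins that, together with ribosomal RNA, build the large and the small subunit of the ribosome. They were taken as the probe sets that the platform annotation pairs with exactly 1 gene symbol, where that symbol is the name of a large-subunit protein (RPL or RPLP) or a small-subunit protein (RPS or RPSA). Genes of the S6 kinases and pseudogenes were left out. This gave 61 of 53617 probe sets and 53 of 22395 genes, of which 33 belong to the large and 20 to the small subunit. Among the 53 are 7 paralogs, which are second genes closely related to a core ribosomal protein gene: RPL3L, RPL7L1, RPL10L, RPL22L1, RPL26L1, RPL39L and RPS27L. All 53 are protein-coding in RefSeq. A further 21 ribosomal protein genes, among them RPL3, RPL4, RPL5, RPL23, RPS2 and RPS20, were found only on probe sets that carry several symbols, and the rule leaves them out. Of the probe sets with several symbols, 38 held a ribosomal protein gene, and 31 of these were shared with a small nucleolar RNA, a class of RNA that often lies in the introns of ribosomal protein genes.

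The cells were A549, an established human lung adenocarcinoma line of epithelial origin. They were treated with 2 µM Comp.2 (2 arrays), with 2 µM Comp.4 (2 arrays) or with vehicle only (2 arrays), and RNA was taken on day 2. Comp.2 and Comp.4 are code names; the series title calls the agents histone acetyltransferase inhibitors that are sequence-specific, and the stated question was how gene expression changes under each. All 6 samples are of this 1 line, and the labels do not say that arrays of a group came from separate cultures, so p-values reflect only how far these arrays scatter, and that scatter may be technical. The values are log2 signals made by the authors with RMA, which corrects background, equalises the distributions of the arrays and summarises probes, so a change shared by most transcripts cannot be seen in them. Deposited values ran from 1.80 to 13.26, and the array medians lay between 4.55 and 4.56. The 7 A549 and epithelial markers averaged 7.34 to 12.35 over the arrays, against 2.78 to 5.44 for 5 fibroblast markers, 4.02 to 5.74 for 3 endothelial markers and 2.69 to 6.02 for 4 leukocyte markers.

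Ribosomal proteins are among the most abundant products of a growing cell, and their genes are transcribed together at rates that keep the subunits in balance. Most of their messenger RNAs begin with a cytosine followed by a run of pyrimidines, the 5′ terminal oligopyrimidine (TOP) motif, through which mTOR signalling and the protein LARP1 control their translation. When ribosome assembly is disturbed, several free ribosomal proteins, led by RPL5 and RPL11 in a complex with 5S ribosomal RNA, bind the ubiquitin ligase MDM2 and inhibit it. RPS27L is a paralog of RPS27, and both proteins are known to bind MDM2.

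The start of transcription is shown for the paralogs that the results turn on, for the genes they resemble, and for RPL27 and RPL36, because the TOP motif is read from these bases. Sequences are those of RefSeq on GRCh38.p14, printed 5′ to 3′ on the strand of the gene, with 15 bases before the start site and 15 from it. Capitals mark the pyrimidine run where the start base is C and at least 4 further pyrimidines follow.
RPS27L: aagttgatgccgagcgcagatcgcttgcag
RPS27: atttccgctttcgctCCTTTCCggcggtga
RPL22L1: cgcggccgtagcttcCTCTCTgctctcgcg
RPL22: tagttcgctcacctcCCTTTCTaactccgc
RPL26L1: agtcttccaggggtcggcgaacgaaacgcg
RPL26: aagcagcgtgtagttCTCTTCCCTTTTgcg
RPL39: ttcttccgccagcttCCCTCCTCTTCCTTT
RPL27: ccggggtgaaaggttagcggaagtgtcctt
RPL36: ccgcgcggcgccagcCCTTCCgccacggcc
These windows lie at chr15:63157463-63157492 on the minus strand for RPS27L, chr1:153990747-153990776 on the plus strand for RPS27, chr3:170870181-170870210 (minus) for RPL22L1 and chr1:6199581-6199610 (minus) for RPL22. Those of RPL26L1, RPL26 and RPL39 lie at chr5:172958714-172958743 (plus), chr17:8383179-8383208 (minus) and chrX:119791616-119791645 (minus). RPL27 lies at chr17:42998404-42998433 (plus) and RPL36 at chr19:5690280-5690309 (plus). RPS27, RPL22 and RPL26 begin with a pyrimidine run of this kind and so does the paralog RPL22L1, whereas RPS27L, RPL26L1 and RPL27 do not at the RefSeq start used here.

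RefSeq promoters were matched for 46 of the 53 genes (54 promoters in all, each with 250 bases before and 50 after the start). RPS15A, RPL30, RPL8, RPL37, RPL7, RPL39L and RPL3L had no entry. A TOP start, as defined above, was found at 31 of the 54 promoters (57.4%) and at 4.07% of all 35116 promoters of the same length. The letters CCGGAAG, a sequence bound by ETS factors, were found on either strand of 35.2% of the members' promoters and 10.3% of all promoters. ATGGCGG, the core bound by YY1, was in 14.8% against 5.55%. Other searches gave smaller differences. GGGCGG (Sp1) was in 50% against 45%, CCAAT (NF-Y) in 31.5% against 34.6% and CACGTG (E-box) in 7.41% against 7.26%. TATAAA, the TATA box, was in 7.41% of the members' promoters against 11.5% of all. All were searched on both strands, matches may overlap each other, and a match is a description of the letters only.

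The stretch from 150 bases before the start to 15 bases from it is shown for RPS27L (chr15:63157463-63157627, minus strand) and RPL27 (chr17:42998269-42998433, plus strand), the only members that passed the test in any comparison. In RPS27L the capitals mark the letters CCGGAAG, whose first base lies at position -19 relative to the start. The RPL27 stretch holds no exact match to all of these letters, but it does hold the shorter GGAAG.
RPS27L: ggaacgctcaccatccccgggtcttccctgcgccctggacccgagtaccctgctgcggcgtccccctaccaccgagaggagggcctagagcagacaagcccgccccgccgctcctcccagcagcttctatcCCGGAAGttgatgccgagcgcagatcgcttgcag
RPL27: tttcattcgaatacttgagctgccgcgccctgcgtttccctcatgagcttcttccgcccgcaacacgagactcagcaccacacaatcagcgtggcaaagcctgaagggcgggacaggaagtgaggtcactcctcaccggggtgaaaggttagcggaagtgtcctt

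In Comp.2-treated cells, RPS27L rose and no other ribosomal protein gene passed the test. RPS27L had log2 levels of 5.92 and 5.89 on the Comp.2 arrays, 5.43 and 5.25 on the Comp.4 arrays and 5.16 and 5.16 on the vehicle arrays. The Comp.2 arrays were the highest, the vehicle arrays the lowest, and no groups overlapped. The change with Comp.2 against vehicle was 0.75 (SE 0.08, 95% interval 0.55 to 0.94; limma, adjusted p = 0.0372), a 1.68-fold difference. In RNA from whole cultures, a change in the share of cells that express a gene and a change in RNA per cell cannot be told apart. With any 1 of the 6 arrays left out the change stayed between 0.73 and 0.77 while the adjusted p ran from 0.0516 to 0.318, and with the Comp.2 and vehicle arrays alone it was 0.0516.

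Few members were called after Comp.2, while their Comp.2 arrays lay below the vehicle arrays more often than those of all genes. The 1 member called higher compares with 0.134% of all 22395 genes, and 0 members were called lower, against 0.0625% of all genes. At an unadjusted p under 0.05 the limma fit had 5 of 53 members (9.43%), against 11.2% of all genes: RPS27L on the higher side, and RPL12, RPL27, RPL30 and RPL39L on the lower side. Arrays of the groups did not overlap for 7 members that were higher (13.2%, against 22.7% of all genes and 23.5% of the brighter genes) and for 23 that were lower (43.4%, against 21% of all genes and 27.1% of the brighter genes). Brighter genes are those with a mean signal above that of the median gene. All 7 on the higher side belong to the small subunit: RPS7, RPS15, RPS19, RPS24, RPS27, RPS27L and RPS28. The share of members with a change above 0 was alike in both subunits, 42.4% in the large and 45% in the small. Among the 7, RPS15, RPS27 and RPS7 changed by only 0.02, 0.03 and 0.04. Dimmer probe sets of RPS27 and RPS28 had the other sign, at -0.03 and -0.15. The 23 on the lower side hold 15 large-subunit and 8 small-subunit genes. Some of these differences were small, as in RPL24 (-0.05) and RPS29 (-0.04). The median deviation of the members from their own means was -0.0328 and -0.0112 on the Comp.2 arrays. Members read on the same arrays are not independent, so these counts are a description only.

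Among members whose Comp.2 and vehicle arrays did not overlap, the largest lower values after Comp.2 were in RPL39L, RPL12 and RPL30, and none of the 3 passed the test. RPL39L, a paralog of the peptide exit tunnel protein RPL39, had 6.54 and 6.47 on the Comp.2 arrays, 7.11 and 7.00 on the Comp.4 arrays and 7.13 and 6.82 on the vehicle arrays. RPL12, which lies at the base of the ribosomal stalk, had 5.72 and 5.70 on the Comp.2 arrays, 5.74 and 6.02 on the Comp.4 arrays and 6.24 and 6.00 on the vehicle arrays. RPL30, a large-subunit protein, had 5.50 and 5.39 on the Comp.2 arrays, 5.70 and 5.62 on the Comp.4 arrays and 5.69 and 5.66 on the vehicle arrays. In all 3 the Comp.2 arrays lay below both vehicle arrays. The log2 differences of Comp.2 from vehicle were -0.48 for RPL39L (95% interval -0.74 to -0.21, limma adjusted p = 0.233), -0.41 for RPL12 (-0.70 to -0.12, 0.312) and -0.23 for RPL30 (-0.42 to -0.05, 0.367).

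On the higher side after Comp.2, the members next to RPS27L were RPS19 and RPS28, again among those whose arrays did not overlap. RPS19, the gene most often mutated in Diamond-Blackfan anaemia, had 11.52 and 11.66 on the Comp.2 arrays against 11.48 and 11.43 on the vehicle arrays, a difference of 0.13 (95% interval -0.07 to 0.34; limma, adjusted p = 0.608). RPS28 had 11.43 and 11.48 on the Comp.2 arrays against 11.40 and 11.26 on the vehicle arrays, a difference of 0.13 (-0.07 to 0.32, 0.605). Neither difference passed the test. A dimmer probe set of RPS28 had the other sign, -0.15, so its direction is unsettled.

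**Figure D1:**
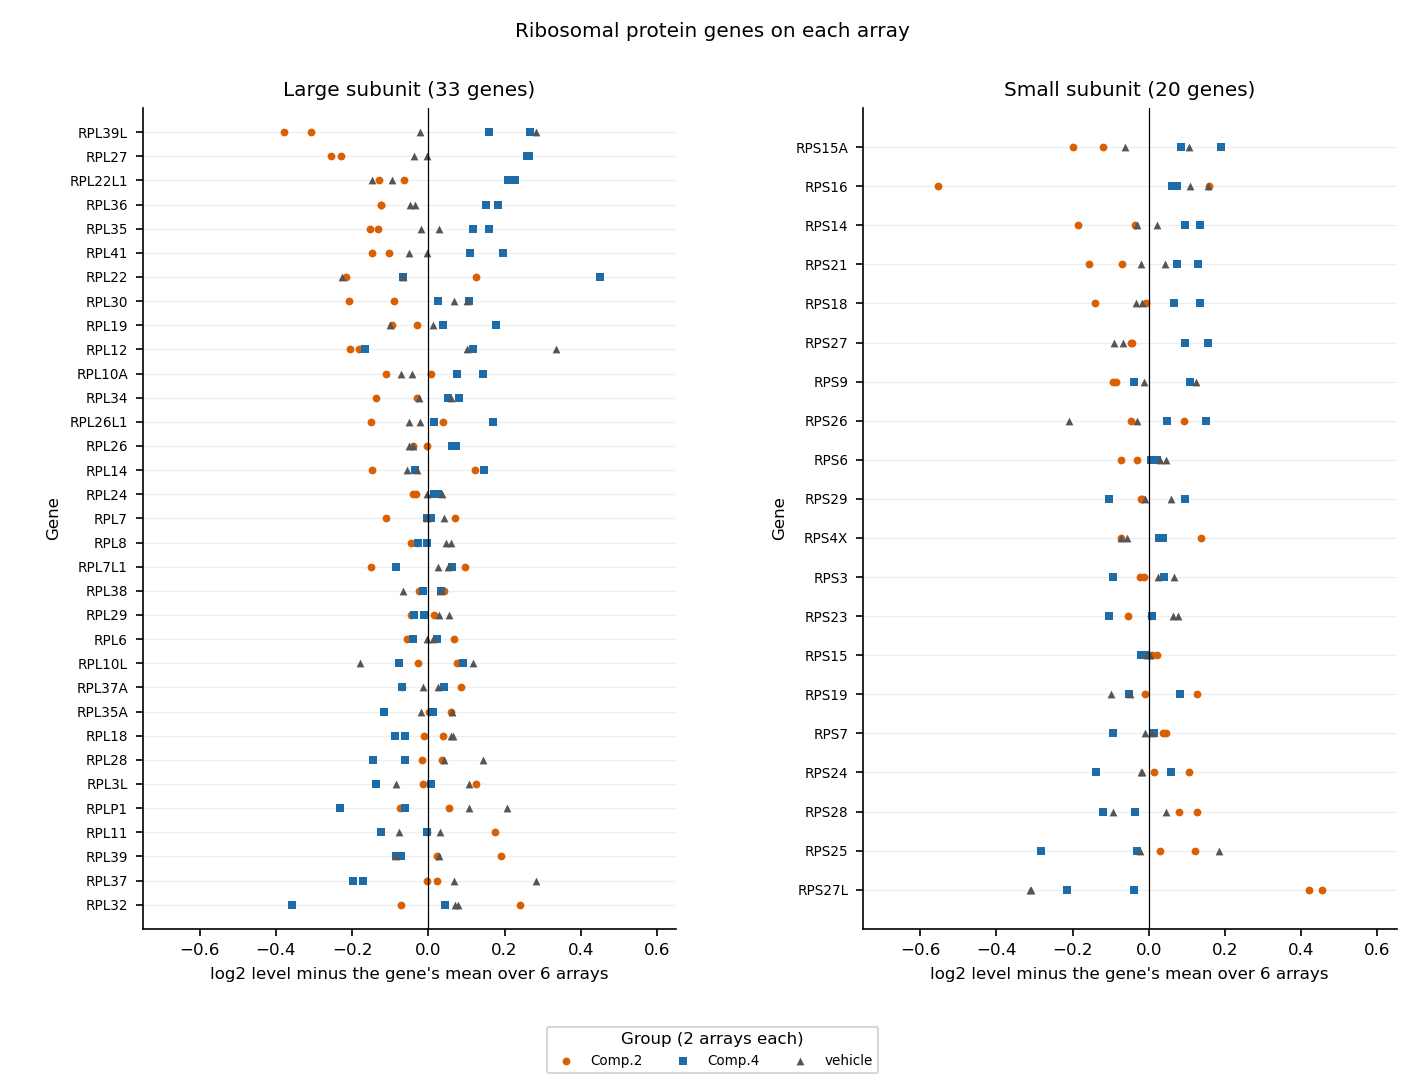
Log2 level of each of the 53 ribosomal protein genes on each of the 6 arrays, minus the gene's own mean over the 6 arrays (x axis, log2 units), with genes down the page ordered by their difference of Comp.4 from Comp.2 within each subunit. Points are single arrays of Comp.2 (circles), Comp.4 (squares) and vehicle (triangles); most lie within 0.25 of a gene's mean, and RPS27L (5.92 and 5.89 with Comp.2, against 5.16 and 5.16 with vehicle) and RPL27 have groups that stand apart.

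In Comp.4-treated cells, no ribosomal protein gene passed the test against vehicle. By limma, 0 members were called higher (0.0536% of all genes were) and 0 lower (0.0938% of all genes). At an unadjusted p under 0.05 there were 8 of 53 (15.1%), against 16.5% of all genes, and a fit with a mean-variance trend called 4 (RPL27, RPL36, RPL37 and RPS27), beside 5.47% of all genes called by that fit. Those with an unadjusted p under 0.05 were RPL22L1, RPL27, RPL36, RPL41 and RPS27 on the higher side and RPL28, RPL37 and RPLP1 on the lower side. The arrays did not overlap for 16 members on the higher side (30.2%, against 27.2% of all genes and 28.4% of the brighter genes) and 12 on the lower side (22.6%, against 22.2% and 31.1%).

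Among members whose Comp.4 and vehicle arrays did not overlap, the largest higher values after Comp.4 were in RPL22L1, RPL27 and RPS26. RPL22L1, the paralog of the RNA-binding protein RPL22, had 5.96 and 5.94 on the Comp.4 arrays against 5.59 and 5.64 on the vehicle arrays. The Comp.4 arrays lay above the vehicle arrays, and the difference was 0.34 (SE 0.07, 95% interval 0.17 to 0.51; limma, adjusted p = 0.112). RPS26, a small-subunit protein near the messenger RNA exit, had 6.15 and 6.05 on the Comp.4 arrays against 5.97 and 5.79 on the vehicle arrays, a difference of 0.22 (-0.01 to 0.45, 0.316). RPL27, described with the comparison of the compounds, differed from vehicle by 0.28 (95% interval 0.12 to 0.44, adjusted p = 0.136).

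Among the same kind of members, the largest lower values after Comp.4 were in RPL37, RPLP1 and RPS25. RPL37, a large-subunit protein reported to bind MDM2, had 6.92 and 6.90 on the Comp.4 arrays against 7.38 and 7.16 on the vehicle arrays, a difference of -0.36 (95% interval -0.57 to -0.15; limma, adjusted p = 0.142). RPLP1, an acidic protein of the stalk that recruits elongation factors, had 6.49 and 6.66 on the Comp.4 arrays against 6.92 and 6.82 on the vehicle arrays, a difference of -0.30 (-0.52 to -0.08, 0.195). RPS25, a small-subunit protein needed for initiation at several viral internal entry sites, had 6.46 and 6.71 on the Comp.4 arrays against 6.72 and 6.93 on the vehicle arrays. Its difference was -0.24 (-0.51 to 0.03, 0.359), and the lower vehicle array was close to the higher Comp.4 array. None of the 3 passed the test.

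**Figure D2:**
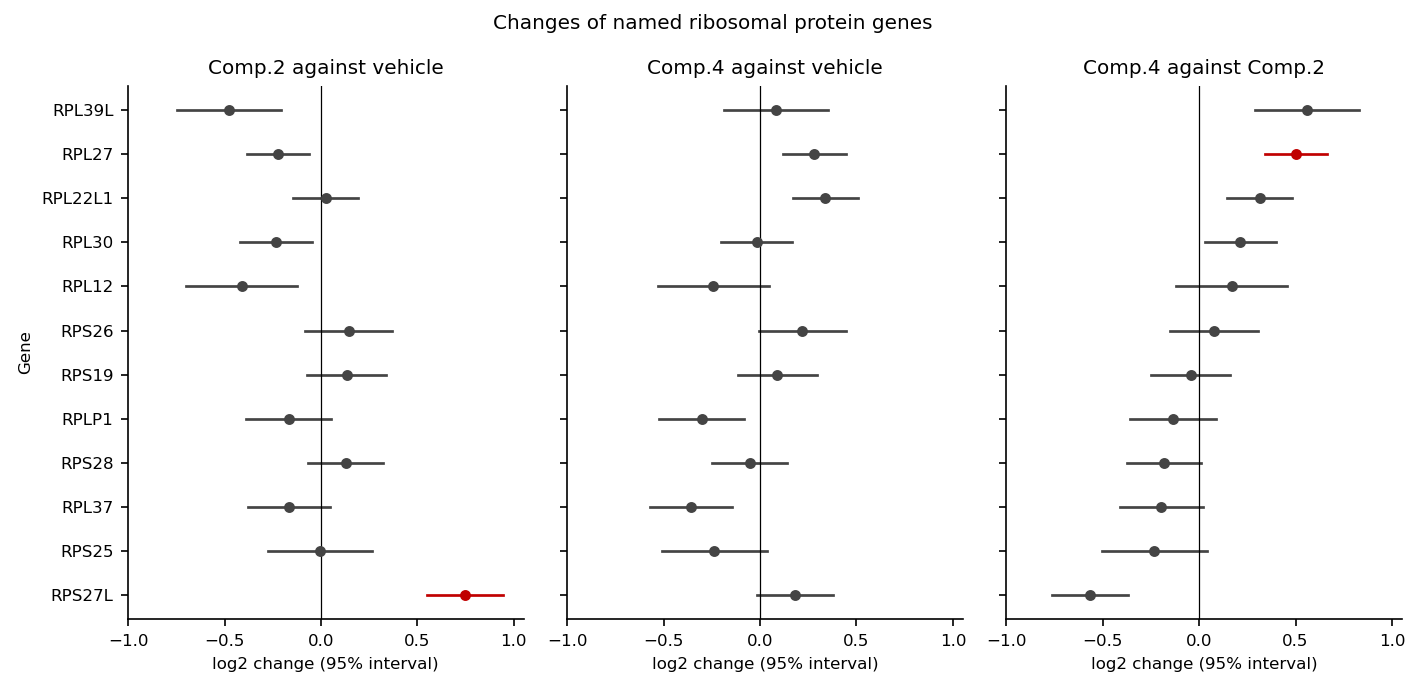
Log2 change with its 95% interval from limma (x axis) for 12 named ribosomal protein genes (y axis) in the comparisons of Comp.2 with vehicle, of Comp.4 with vehicle and of Comp.4 with Comp.2. Red points passed an adjusted p of 0.05: RPS27L after Comp.2 (0.75) and RPL27 between the compounds (0.50).

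Compared directly, at equal dose and time, Comp.4 and Comp.2 differed in RPL27. RPL27, a large-subunit protein, had 11.01 and 11.00 on the Comp.4 arrays, 10.51 and 10.49 on the Comp.2 arrays and 10.70 and 10.74 on the vehicle arrays. No groups overlapped, and vehicle lay between the compounds. The difference of Comp.4 from Comp.2 was 0.50 (SE 0.07, 95% interval 0.34 to 0.67; limma, adjusted p = 0.0493), or 1.42-fold, while Comp.2 differed from vehicle by -0.22 (-0.38 to -0.06, 0.329). With any 1 array left out the difference stayed between 0.49 and 0.52 and the adjusted p ran from 0.143 to 0.221; with the arrays of both compounds alone it was 0.143.

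RPL27 was the 1 member called higher with Comp.4 than with Comp.2 (0.192% of all genes were), and 0 were called lower (0.179% of all genes). At an unadjusted p under 0.05 the fit had 12 of 53 members (22.6%), against 15% of all genes. On the higher side these were RPL22L1, RPL27, RPL30, RPL35, RPL36, RPL39L, RPL41, RPS14, RPS15A, RPS21 and RPS27, and on the lower side RPS27L. Arrays did not overlap for 21 members that were higher with Comp.4 (39.6%, against 23.7% of all genes and 26.6% of the brighter genes) and for 9 that were lower (17%, against 21.6% and 28.3%). Of the 21, 14 belong to the large subunit and 7 to the small subunit.

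No other member passed the threshold between the compounds in this fit, and the intervals show what differences remain possible. Among the brighter genes alone 7 members passed (RPL22L1, RPL27, RPL35, RPL36, RPL39L, RPL41 and RPS27L, beside 6.39% of those genes). RPS27L entered the brighter genes only through its Comp.2 arrays, so its call there is no separate support. With a variance trend 7 members passed as well (RPL27, RPL35, RPL36, RPL39L, RPS21, RPS27 and RPS27L, beside 4.8% of all genes). RPL39L was higher with Comp.4 than with Comp.2 by 0.56 (95% interval 0.29 to 0.83; limma, adjusted p = 0.11) without overlap of the arrays. RPS27L was lower with Comp.4 than with Comp.2 by 0.56 on the log2 scale (a difference of -0.56, 95% interval -0.76 to -0.37), with an adjusted p of 0.0593 just beyond the threshold. RPL36, a large-subunit protein, had 9.85 and 9.82 on the Comp.4 arrays, 9.54 and 9.54 on the Comp.2 arrays and 9.62 and 9.63 on the vehicle arrays. As for RPL27, the vehicle arrays of RPL36 lay between those of the compounds; Comp.4 differed from Comp.2 by 0.29 (0.13 to 0.45, 0.14). RPL35 (0.28, 0.11 to 0.44, 0.159) and RPL41, a very short basic protein (0.28, 0.10 to 0.45, 0.171), had the same order of groups. On the lower side, RPS25 differed by -0.23 (-0.50 to 0.04, 0.404) and RPL37 by -0.20 (-0.41 to 0.02, 0.373).

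Paralogs are given here beside the genes they resemble. Of the 16 genes in these pairs 13 were measured, and 1, RPS27L, passed the test after Comp.2. There 0.134% of all genes were called higher and 0.0625% lower. In the other comparisons 0 passed, beside 0.0536% of all genes higher and 0.0938% lower after Comp.4, and 0.192% and 0.179% between the compounds. At an unadjusted limma p under 0.05 there were 2 after Comp.2, 2 after Comp.4 and 4 between Comp.4 and Comp.2, beside 11.2%, 16.5% and 15% of all genes. RPS27, the gene that RPS27L resembles, had 12.07 and 12.08 on the Comp.2 arrays, 12.28 and 12.22 on the Comp.4 arrays and 12.05 and 12.03 on the vehicle arrays. Its difference from vehicle was 0.03 (95% interval -0.13 to 0.20) after Comp.2 and 0.21 (0.04 to 0.37, adjusted p = 0.22) after Comp.4; the order of the compounds was thus the other way round than for RPS27L. Its second, dimmer probe set had 0.05 in place of 0.21. There the Comp.4 arrays (6.60 and 6.90) lay on both sides of the vehicle arrays (6.76 and 6.64).

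RPL39 had 7.50 and 7.67 on the Comp.2 arrays, 7.40 and 7.39 on the Comp.4 arrays and 7.39 and 7.50 on the vehicle arrays, so that Comp.2 differed from vehicle by 0.14 (95% interval -0.07 to 0.34) where RPL39L differed by -0.48. RPL22 had 4.94 and 5.28 on the Comp.2 arrays, 5.09 and 5.60 on the Comp.4 arrays and 4.93 and 5.09 on the vehicle arrays. Replicates of RPL22 spread more than those of nearly all other members (pooled SD 0.261), and its difference of 0.34 after Comp.4 had an interval of -0.11 to 0.79, where RPL22L1 with the same difference had a narrower one. RPL26L1 had 6.63 and 6.82, 6.95 and 6.80, and 6.73 and 6.76 on the Comp.2, Comp.4 and vehicle arrays, and RPL26 had 8.47 and 8.43, 8.53 and 8.54, and 8.43 and 8.42. Neither of these last 2 differed from vehicle by more than 0.13 after either compound.

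None of the remaining paralogs passed the test in any comparison. RPL3L, known from heart and skeletal muscle, had differences from vehicle of 0.04 after Comp.2 and -0.08 after Comp.4. RPL10L, known from testis, had 0.06 and 0.04, RPL7L1 had -0.07 and -0.05, and RPL7 itself had -0.04 and -0.02. RPL10L, at 3.91 and 4.02 with Comp.2, 4.03 and 3.86 with Comp.4 and 3.76 and 4.06 with vehicle, was the dimmest of the members; RPL7, at 4.11 and 4.29, 4.22 and 4.23, and 4.22 and 4.27, came next. RMA's floor compresses differences of probe sets this dim. RPL36AL, which the naming rule did not count among the 53, completed the 13 and passed in no comparison.

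**Figure D3:**
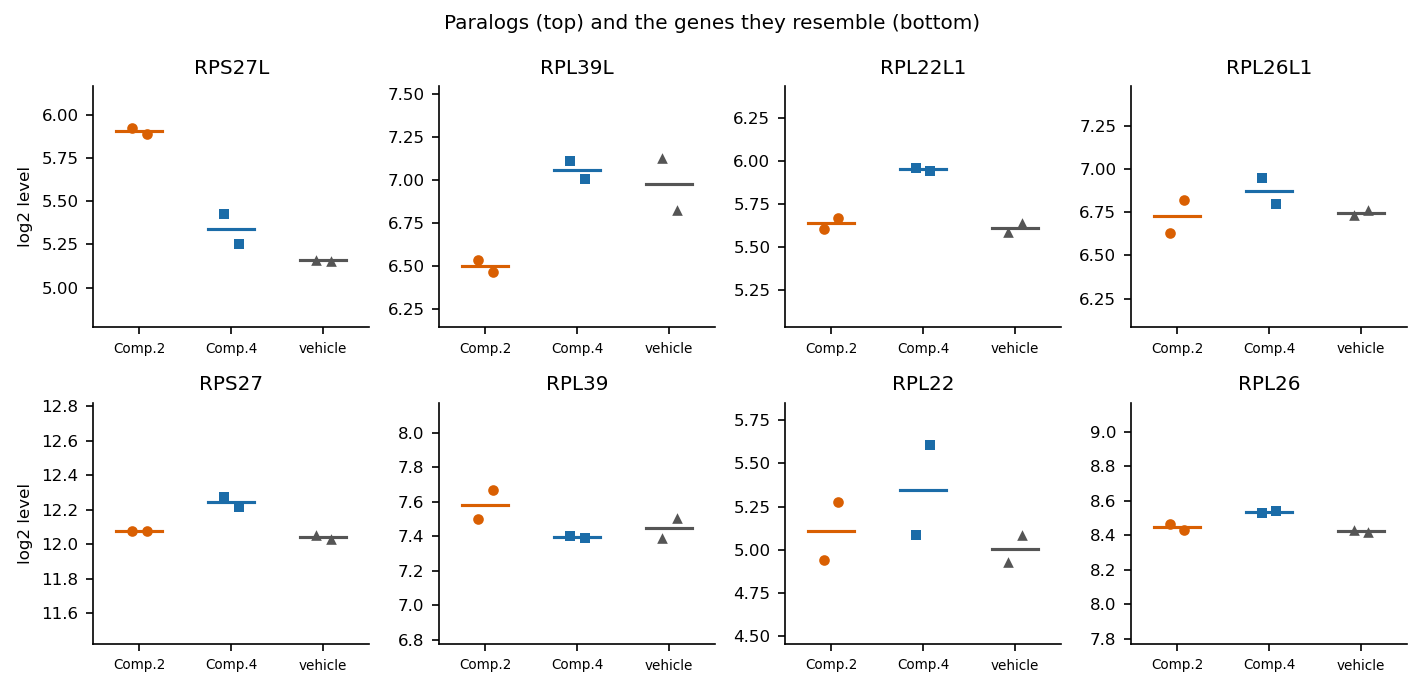
Log2 levels (y axis, with the same span in every panel) of 4 paralogs in the upper row and of the genes they resemble in the lower row, with Comp.2, Comp.4 and vehicle from left to right; points are arrays (2 per group) and lines are group means. RPS27L stands highest with Comp.2 (5.92 and 5.89, against 5.16 and 5.16 with vehicle). RPS27, shown by its brightest probe set, is highest with Comp.4. RPL39L is lowest with Comp.2 while RPL39 is not.

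Of the 15 ribosomal proteins listed as binding MDM2, 10 were measured: RPL11, RPL26, RPL37, RPS3, RPS7, RPS14, RPS25, RPS26, RPS27 and RPS27L. RPL4, RPL5, RPL23, RPS20 and RPS27A were not analysed here. RPS27L, the gene also called among the paralog pairs, was the 1 of the 10 called after Comp.2. There 0.134% of all genes were called higher and 0.0625% lower. In the other comparisons 0 were called, beside 0.0536% of all genes higher and 0.0938% lower after Comp.4, and 0.192% and 0.179% between the compounds. At an unadjusted limma p under 0.05 there were 1 after Comp.2, 2 after Comp.4 and 3 between Comp.4 and Comp.2, beside 11.2%, 16.5% and 15% of all genes. RPL11, the partner of RPL5, had 10.50 and 10.32 on the Comp.2 arrays, 10.20 and 10.32 on the Comp.4 arrays and 10.35 and 10.25 on the vehicle arrays. The groups of RPL11 overlapped, and its difference from vehicle was 0.11 (95% interval -0.11 to 0.33) after Comp.2 and -0.04 (-0.26 to 0.18) after Comp.4. RPS3, RPS7 and RPS14 differed from vehicle by between -0.11 and 0.12 after either compound. The medians of the 10 were 0.029 after Comp.2 and 0.036 after Comp.4, beside 0.004 and 0.0179 for all genes.

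MDM2 itself, which is no member, had 9.81 and 9.69 on the Comp.2 arrays, 8.82 and 8.92 on the Comp.4 arrays and 8.75 and 8.79 on the vehicle arrays. It rose with Comp.2 by 0.98 (95% interval 0.79 to 1.17; limma, adjusted p = 0.0209), and was lower with Comp.4 than with Comp.2 (-0.88, -1.07 to -0.68, 0.022). CDKN1A, an inhibitor of cyclin-dependent kinases, rose with Comp.2 by 1.19 (0.92 to 1.46, 0.0234), and its difference after Comp.4 was 0.60 (0.33 to 0.86, 0.0993). With any 1 Comp.2 or vehicle array left out neither gene passed after Comp.2 (adjusted p from 0.129 to 0.212), and with those groups alone MDM2 had 0.0493 and CDKN1A 0.0508. Between the compounds, MDM2 had 0.076 with both compounds alone and 0.076 to 0.163 with any 1 array left out. MDM4, the partner of MDM2, had -0.33 and -0.35 and did not pass. The probe set annotated to CDKN2A, another inhibitor of cyclin-dependent kinases, read 0.21 higher with Comp.4 than with Comp.2 (limma, adjusted p = 0.275). Whether it reads expression of that gene in A549 was not tested. MDM2 and CDKN1A had Comp.2 highest and vehicle lowest, the order of groups seen for RPS27L. MDM4 was highest with vehicle, and the CDKN2A probe set read highest with Comp.4. The comparisons with vehicle share its arrays.

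Over the whole group, changes of the ribosomal protein genes centred close to 0. After Comp.2 their median log2 change was -0.0412, beside 0.004 for all genes, and 49 of the 53 (92.5%) lay within 0.25 of no change, as did 90.6% of all genes; without replicate 1 of Comp.2 the median was 0.0043. After Comp.4 the median was -0.0129, beside 0.0179, and 48 (90.6%) lay within 0.25, against 86.6% of all genes. It turned above 0 without replicate 1 of Comp.4 (0.0191), without replicate 2 of Comp.4 (0.0035) or without replicate 1 of vehicle (0.0135). Between Comp.4 and Comp.2 the median was 0.0236, beside 0.0084, and 44 (83.0%) lay within 0.25, against 87.7%; without replicate 1 of Comp.2 it was -0.0153. The pooled replicate SD of the members' median deviation on an array was 0.0096. Both comparisons with vehicle share its 2 arrays.

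Large and small subunits were set against each other by the changes of their members. After Comp.2 the median change was -0.0412 in the 33 large-subunit genes and -0.0243 in the 20 small-subunit genes, a difference of -0.0168. After Comp.4 it was -0.0127 in large-subunit and -0.017 in small-subunit genes (difference 0.0042), and between Comp.4 and Comp.2 it was 0.0238 and 0.0073 (difference 0.0165). The pooled replicate SD of the same measure was 0.011. Testing all probe sets together counts 3 small-subunit genes more than once. RPS18 has 7 probe sets, 4 with identical values, and RPS27 and RPS28 have 2 each. In that setting the differences were -0.0748 after Comp.4 and -0.0532 between the compounds. They were also below 0 after Comp.4 without replicate 2 of Comp.4 (-0.0583), replicate 1 of vehicle (-0.0314) or replicate 2 of vehicle (-0.0091), and between the compounds without replicate 1 of Comp.2 (-0.0269) or replicate 2 of Comp.4 (-0.0127), so neither sign is settled. The mean of the large-subunit genes minus that of the small-subunit genes was -1.07 and -1.14 on the Comp.2 arrays, -1.04 and -1.06 on the Comp.4 arrays and -1.04 and -1.03 on the vehicle arrays. By these means the Comp.2 arrays were the lowest of the 6, and the Comp.4 and vehicle arrays overlapped. By medians of each gene's deviation from its own mean, the large minus small value was -0.0181 and -0.0225 on the Comp.2 arrays, -0.032 and -0.0054 on the Comp.4 arrays and 0.0245 and 0.0242 on the vehicle arrays, so that a Comp.4 array was the lowest. Paralogs moved the means: after Comp.2 the mean change was -0.0605 in large-subunit and 0.0095 in small-subunit genes, against -0.0578 and -0.0294 without paralogs. The size of the offset between subunits on an array carries no meaning, since probes of different genes bind unequally. An exact permutation test of 2 arrays against 2 cannot give a two-sided p below 0.333, so none was run.

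**Figure D4:**
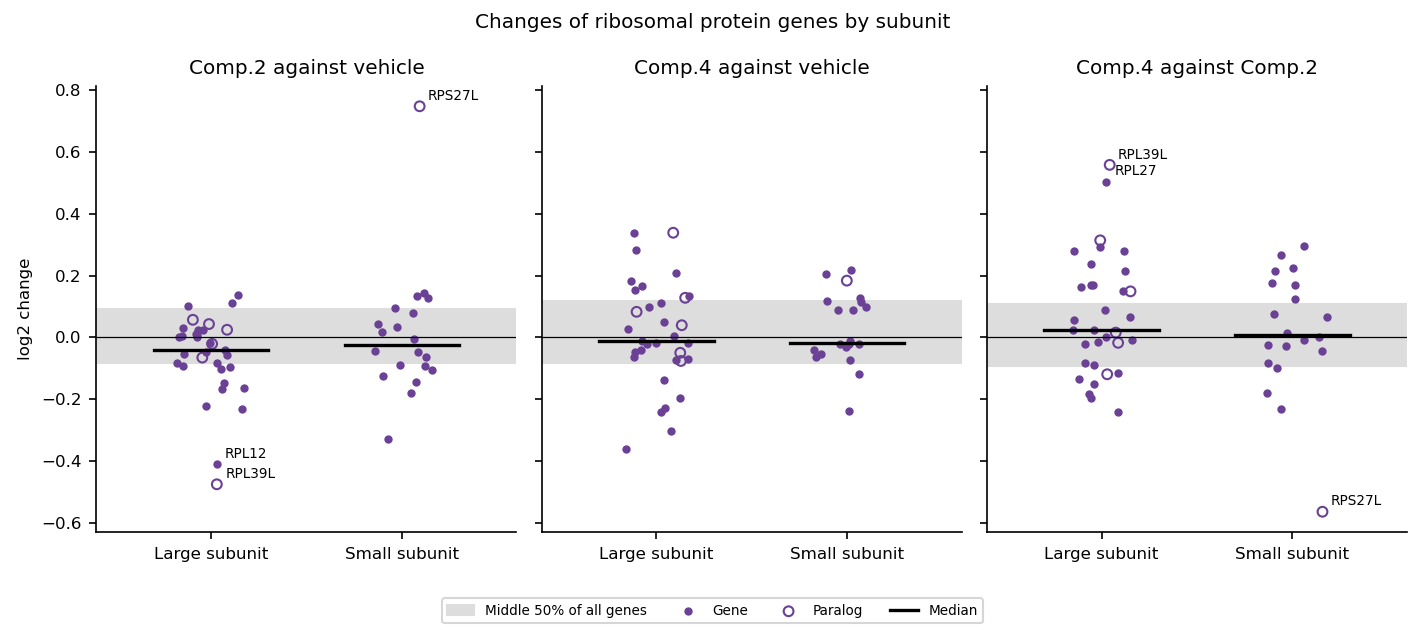
Log2 change of each ribosomal protein gene (y axis) by subunit (x axis) in the comparisons of Comp.2 with vehicle, of Comp.4 with vehicle and of Comp.4 with Comp.2; open circles are paralogs, black lines are subunit medians and the grey band holds the middle 50% of all genes. The medians of both subunits lie close to 0 in each panel (-0.0412 and -0.0243 after Comp.2), and the labelled genes, the farthest from 0 over all panels, are RPS27L, RPL39L, RPL12 and RPL27.

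The changes were also set out by the TOP start. After Comp.2 the median was -0.0524 in the 31 genes with a TOP start and 0.0109 in the 15 without, and after Comp.4 it was -0.0203 and 0.0393. Between Comp.4 and Comp.2 the medians were 0.0661 and 0.0009. RPS27L and RPL27, the members that passed the test, are both among the 15 without; RPL12, RPL22L1, RPL36 and RPL41 have a TOP start. The definition asks for C at the exact RefSeq start base. Genes whose pyrimidine run begins just after that base, such as RPS28 and RPL10A, therefore count as without. The split depends on the annotated start, and these medians were not tested.

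Signals of the members and their spread frame these results. Member means over the arrays ran from 3.94 to 12.12 with a median of 6.82, from 3.94 to 11.40 in the large and from 5.47 to 12.12 in the small subunit, and 48 of the 53 lay above the mean of the median gene (5.35). RPS27 and RPS15 had the highest signals; RPS15 had 11.68 and 11.70 on the Comp.2 arrays, 11.67 and 11.66 on the Comp.4 arrays and 11.68 and 11.67 on the vehicle arrays, a difference from vehicle of 0.02 or less after either compound. Signals of different probe sets do not rank transcripts by abundance, because probes bind unequally. The median pooled replicate SD was 0.0682 in the members, 0.0714 in the brighter genes and 0.0903 in all genes. RPS16 had the widest spread (0.291) because of its Comp.2 arrays, at 7.60 and 8.31, against 8.22 and 8.23 with Comp.4 and 8.31 and 8.26 with vehicle.

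Ribosomal protein genes have many processed pseudogenes and near-identical copies in the human genome, and probes can read them together with the gene, so values of single genes are uncertain to that extent. Several probe sets were found for 3 members. RPS18 had 7, of which 5, the brightest included, stayed within 0.05 of it on every array and 4 held identical values. RPS27 had a second probe set with a mean of 6.71, against 12.12, and RPS28 had a second at 4.40, against 11.35. The brightest stood for the gene in each case, and whether it reads the gene or a near-identical copy was not tested.

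Other parts of the ribosome pathway were followed in lists. Of 17 measured translation factors and other genes with TOP messenger RNAs (22 listed), 0 passed in any comparison by limma; their medians were -0.05 after Comp.2, -0.16 after Comp.4 and -0.08 between Comp.4 and Comp.2. At an unadjusted p under 0.05 there were 1 higher and 1 lower after Comp.2, 1 higher and 7 lower after Comp.4, and 0 higher and 5 lower between the compounds, beside 11.2%, 16.5% and 15% of all genes. The largest difference was in HNRNPA1, a splicing regulator whose messenger RNA carries a TOP motif: it had 6.41 and 6.86 on the Comp.4 arrays against 7.63 and 7.50 on the vehicle arrays (-0.93, 95% interval -1.28 to -0.57, adjusted p = 0.0783) and 7.51 and 7.38 on the Comp.2 arrays (Comp.4 minus Comp.2 -0.81, adjusted p = 0.0965). EEF1D, a subunit of the elongation factor 1 exchange complex, had the largest after Comp.2 (0.38, adjusted p = 0.151).

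Among 53 measured genes of pre-ribosomal RNA processing and subunit assembly (59 listed), RSL24D1 was the 1 that passed, between the compounds, where 0.192% of all genes were called higher. RSL24D1, which holds the place of RPL24 on the immature large subunit, had 9.86 and 9.78 on the Comp.4 arrays, 9.26 and 9.14 on the Comp.2 arrays and 9.62 and 9.64 on the vehicle arrays. It was higher with Comp.4 than with Comp.2 by 0.62 (95% interval 0.43 to 0.80; limma, adjusted p = 0.0422), with vehicle between the compounds as for RPL27. The call was lost with both compounds alone (adjusted p = 0.13) and with any 1 array left out (0.13 to 0.211). Its difference from vehicle was -0.43 after Comp.2 (adjusted p = 0.137) and 0.19 after Comp.4 (0.298). The list's medians were -0.05, -0.01 and 0.03 in the comparisons of Comp.2 with vehicle, Comp.4 with vehicle and Comp.4 with Comp.2. By limma 0 passed in the comparisons with vehicle, where 2 higher and 8 lower (Comp.2) and 6 higher and 6 lower (Comp.4) had an unadjusted p under 0.05, beside 11.2% and 16.5% of all genes; between the compounds 10 had, beside 15%. NOP10, a protein of the box H/ACA particle, had the largest difference after Comp.4 (0.32, adjusted p = 0.115).

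In the other lists 0 genes passed in any comparison by limma; their counts at an unadjusted p under 0.05 stand beside 11.2%, 16.5% and 15% of all genes in the comparisons of Comp.2 with vehicle, Comp.4 with vehicle and Comp.4 with Comp.2. Of RNA polymerase I subunits and its factors 19 of 23 were measured, with 0, 5 and 5 at that p in the same order; POLR1H, a subunit, had 0.37 after Comp.4 and 0.31 between the compounds, and the shared subunit POLR2K had 0.18 after Comp.2. Of 22 measured regulators of ribosomal protein messenger RNAs (23 listed), 2, 5 and 6 had an unadjusted p under 0.05; MYC, which drives ribosome production, had -0.36 after Comp.2 (adjusted p = 0.223), and TIA1, which represses TOP messenger RNAs, had -0.44 after Comp.4 (0.112) and -0.41 between the compounds. Of 11 measured chaperones and importers of ribosomal proteins (14 listed), 1, 3 and 2 did; GRWD1, a chaperone of RPL3, had -0.29 after Comp.2, and NACA, a nascent chain binding protein, had -0.32 after Comp.4 and -0.31 between the compounds. Of 4 measured genes of ribosome-associated proteins (7 listed), 0, 1 and 0 did; FAU, which encodes the small-subunit protein S30 fused to a ubiquitin-like protein, had 0.08 after Comp.2, 0.19 after Comp.4 and 0.11 between the compounds.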

How the data were processed

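Deposited log2 values of 6 arrays were used as given; the authors made these log2 values with RMA, per the submitters' processing notes. Those name 2 further programs without roles, Transcriptome Analysis Console 2.0 and Affymetrix Expression Console 1.3.1. Genes were named from the platform annotation: 23871 of 53617 probe sets had 1 symbol, 1842 had several and 27904 were unnamed here. RefSeq matched 22569 and updated 90 symbols. Where a gene had several probe sets (632 genes) the one with the highest mean stood for it, which left 22395 genes.

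limma 3.58.1 in R 4.3.3 was fitted with a mean per group to all 6 arrays (3 residual and 3.71 prior degrees of freedom). P-values are two-sided and adjusted by Benjamini-Hochberg over all genes of a comparison, with a threshold of 0.05. The fit was tested on simulated data. Precision is limited by how few arrays there are.

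The members, the 9 gene lists and the tests were chosen with earlier results of these data known. Genes named were members past the threshold, the 3 largest differences in each direction per comparison among members whose arrays did not overlap, those listed as binding MDM2 or as paralog pairs, the 2 brightest and 2 dimmest, and from other lists those past the threshold or else the largest difference, apart from Y-linked genes. Other members were named after their values were seen. Alternatives covered the variance trend, filters, scaling, the replicate block, the arrays fitted and leaving out each array. Scanner files and scan dates were not used here.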

Additional observations from a re-analysis of the deposited data

Results flagged for a closer look

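RPL27 differed between the 2 compounds by a test of the difference itself: the log2 level with Comp.4 exceeded that with Comp.2 by 0.50 (95% interval 0.34 to 0.67; limma, adjusted p = 0.0493), with 11.01 and 11.00 on the Comp.4 arrays against 10.51 and 10.49 on the Comp.2 arrays. The difference did not pass with both compounds alone (adjusted p = 0.143), with any 1 array left out (0.143 to 0.221) or with all probe sets tested together. Groups of 2 arrays are too small for a check of single outlying arrays.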

How the results depend on the processing

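The calls of RPS27L and RPL27 depended on the setting. Their fold changes kept their sign, but none of the alternatives could have reversed it. The variance model, the choice of genes, the replicate block and fitting only the groups compared leave the fold change as it is. The centrings moved all genes by at most 0.0333, and leaving out an array cannot reverse groups that do not overlap. The kept sign is therefore no evidence that these changes are robust. The settings differ in the arrays fitted, the genes tested and the variance model, and which of these moved the calls was not tested. Neither call held with all probe sets tested together or with any array left out. RPS27L after Comp.2 passed among protein-coding genes (limma, adjusted p = 0.02), with a variance trend (0.00582) and under both other scalings. It did not pass with the Comp.2 and vehicle arrays alone (0.0516) or with the replicate block (0.0788). Among the brighter genes it had 0.00512, but it entered that set only through its Comp.2 arrays. Its mean was 5.47 over all arrays, 5.16 with vehicle and 5.34 with Comp.4, against 5.35 for the median gene. That call is therefore no separate support. RPL27 between the compounds passed among the brighter genes (0.00646), among protein-coding genes (0.0392), with a trend (5.51e-05) and under both scalings, but not with both compounds alone (0.143) or the replicate block (0.112). Same-numbered arrays did not deviate together over the genes as a whole (r 0.0291 for Comp.2 and vehicle, 0.0118 for Comp.4 and vehicle, -0.0417 for Comp.4 and Comp.2). The labels do not say whether such arrays were handled together, and these correlations cannot exclude it.

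Values are given in the order Comp.2 with vehicle, Comp.4 with vehicle, Comp.4 with Comp.2. Genes past the threshold numbered 44, 33 and 83; they were 0, 99 and 2 with all probe sets tested together, 233, 839 and 716 among the brighter genes, 14, 0 and 0 with only the groups compared, 15, 4 and 0 with the replicate block and 388, 1226 and 1075 with a variance trend. Among protein-coding genes alone they were 0 for Comp.4 against vehicle and 47 between the compounds. Centring on the brightest other genes gave 15 higher and 16 lower for Comp.4 against vehicle, where 12 were higher and 21 lower before. Ribosomal protein genes past the threshold numbered 1, 0 and 1; they were 0 in the first and last comparison with all probe sets, with only the groups compared and with the replicate block. With a variance trend they were 3 (RPL27, RPL39L and RPS27L), 4 and 7, and among the brighter genes 3 (RPL22L1, RPL27 and RPL37) for Comp.4 against vehicle and 7 between the compounds.

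The members' median change was -0.0308, 0.004 and 0.0661 with all probe sets. For Comp.4 against vehicle it was 0.0022 centred on the 75th percentile and 0.0204 centred on the brightest other genes, and between the compounds 0.04 among the brighter genes and 0.0485 centred on the brightest other genes; these centrings moved all genes by at most 0.0333. The large minus small difference was -0.0748 and -0.0532 for Comp.4 against vehicle and against Comp.2 with all probe sets, and among the brighter genes -0.0299 for Comp.2 against vehicle and 0.0546 between the compounds. With all probe sets, the change of each probe set was as before. Only the small-subunit genes RPS18 (7 probe sets), RPS27 (2) and RPS28 (2) were counted more often, so the set's makeup differs. Among the brighter genes 48 of the 53 members remained. Beyond this, the cause of these shifts was not tested.

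With each array left out in turn, genes past the threshold numbered 0 to 14, 0 to 0 and 0 to 1, and ribosomal protein genes 0 in every comparison (3 to 5, 5 to 10 and 9 to 12 at an unadjusted p under 0.05). The members' median ran from -0.061 to 0.0043, from -0.0148 to 0.0191 and from -0.0153 to 0.0551. The large minus small difference ran from -0.0498 to -0.0088, from -0.0583 to 0.0042 and from -0.0269 to 0.0358. Where a group kept 1 array, that array was assumed to vary like the other groups.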
